A study of Mus musculus with 2 samples.

Results

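Il27ra, Il6st, Il27, Ebi3, Jak1, Jak2, Tyk2 and Stat3 encode the receptor, the ligand, the receptor-associated kinases and the main signal transducer of interleukin 27 (IL-27). They were taken by name from the 31053 genes in the deposited matrices, where all 8 were found, and were followed through gated leukocyte subsets of the stomach. Single-cell RNA was measured with 10x Genomics 5' chemistry in CD45+, propidium iodide-negative cells flushed from the gastric mucosa of TxA23 mice, which carry a transgenic T cell receptor and develop autoimmune gastritis. The IL-27 library came from 3 female TxA23 mice whose subcutaneous osmotic pumps held 800 ng of recombinant IL-27, a covalently linked p28-EBI3 protein at 4 ug/mL in 200 uL. The PBS library came from 1 female and 1 male TxA23 mouse with pumps that held PBS alone. In both groups the pumps were implanted at 3 months of age and the mice were killed 4 weeks later, so every mouse in the comparison had the transgene and a pump. Mice were pooled within each group, and 1 library per group allows no test of the treatment. Intervals below are 95% intervals that cover counting error only.

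IL-27 is a heterodimer of the p28 subunit, encoded by Il27, and the EBI3 subunit. It binds a receptor made of IL-27R alpha, encoded by Il27ra, and gp130, encoded by Il6st, and the associated kinases JAK1, JAK2 and TYK2 phosphorylate STAT transcription factors, STAT3 among them. Activated macrophages and dendritic cells are the usual source of the cytokine, and T cells are its best studied targets, in which it can both promote interferon gamma responses and restrain inflammation. Recombinant protein leaves no RNA, so the Il27 and Ebi3 transcripts counted here were made by the cells themselves.

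By the suffixes of their barcodes the IL-27 cells came from 3 wells and the PBS cells from 2. Wells are given as separate values, although no label states that a well is a mouse. The filters kept 20579 cells of the IL-27 library and 11793 of the PBS library, whose medians were 3079 and 2958 unique molecular identifiers (UMIs, counts of distinct RNA molecules) per cell. Ptprc, which encodes CD45, had a UMI in 74.5% of cells from IL-27 mice and 72.2% from PBS mice. Gastric epithelial genes summed to 21.3 and 22.6 CPM (a gene's UMIs scaled to a fixed total of all UMIs of the cells summed) in IL-27 and PBS cells, whereas erythroid genes summed to 146 and 2.10 CPM. The part of red cell RNA in the results was not tested. The libraries shared 337 barcodes, and pairs of wells within or between libraries shared between 43 and 69. PBS well 2 stood apart. It alone held Y-linked UMIs (3074, against 0 in PBS well 1). Of its CD8 T cells 94.9% passed an effector-gene cutoff (at least 2 UMIs of Ccl5, Nkg7 and Gzmk together), against 65.8% to 70.3% in the other wells. All IL-27 mice were female, and the part of sex in the differences of PBS well 2 was not tested.

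Cells were assigned to subsets from raw UMIs of marker genes. T cells made up 33.5% of the IL-27 library and 20.3% of the PBS library, and B cells 56.0% and 67.8%. There were 1941 IL-27 and 604 PBS conventional CD4 T cells (Foxp3-negative), 239 and 102 Foxp3+ CD4 T cells, 1608 and 558 CD8 T cells, 197 and 278 NK cells, and 60 and 70 macrophages. T and B cells that passed no finer gate are called other T and other B cells below. Marker genes left out of the gates followed the gate names: the macrophage gate held 29844 and 34534 CPM of the macrophage check genes, with 4 of 4 detected in each library. The Trdc+ T gate required a Trdc UMI and no Trac UMI.

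The receptor chains, which have to meet on one cell for full IL-27 binding, differed in how far they spread beyond T cells. Il27ra, the chain specific to IL-27, reached 235 CPM in conventional CD4 T cells of both libraries together, 228 in Trdc+ T cells, 222 in Foxp3+ CD4 T cells and 201 in other T cells. Each of these 4 levels had an interval that overlapped that of its neighbour in this order, while those of conventional CD4 and other T cells did not overlap. CD8 T cells held 160 CPM, NK cells 111 CPM and Fcer2a+ (follicular-type) B cells 56.2 CPM, and each of these steps was larger than the intervals. Germinal centre B cells (8.46 CPM), macrophages (5.19 CPM) and plasmacytoid dendritic cells (1.89 CPM) lay near the bottom, and no Il27ra UMI was seen in 71 neutrophils. The plot of levels shows the 12 subsets with at least 50 cells in each library, where Trdc+ T cells were above conventional CD4 T cells in IL-27 (254 and 240 CPM) and below them in PBS (188 and 219 CPM).

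**Figure D1:**
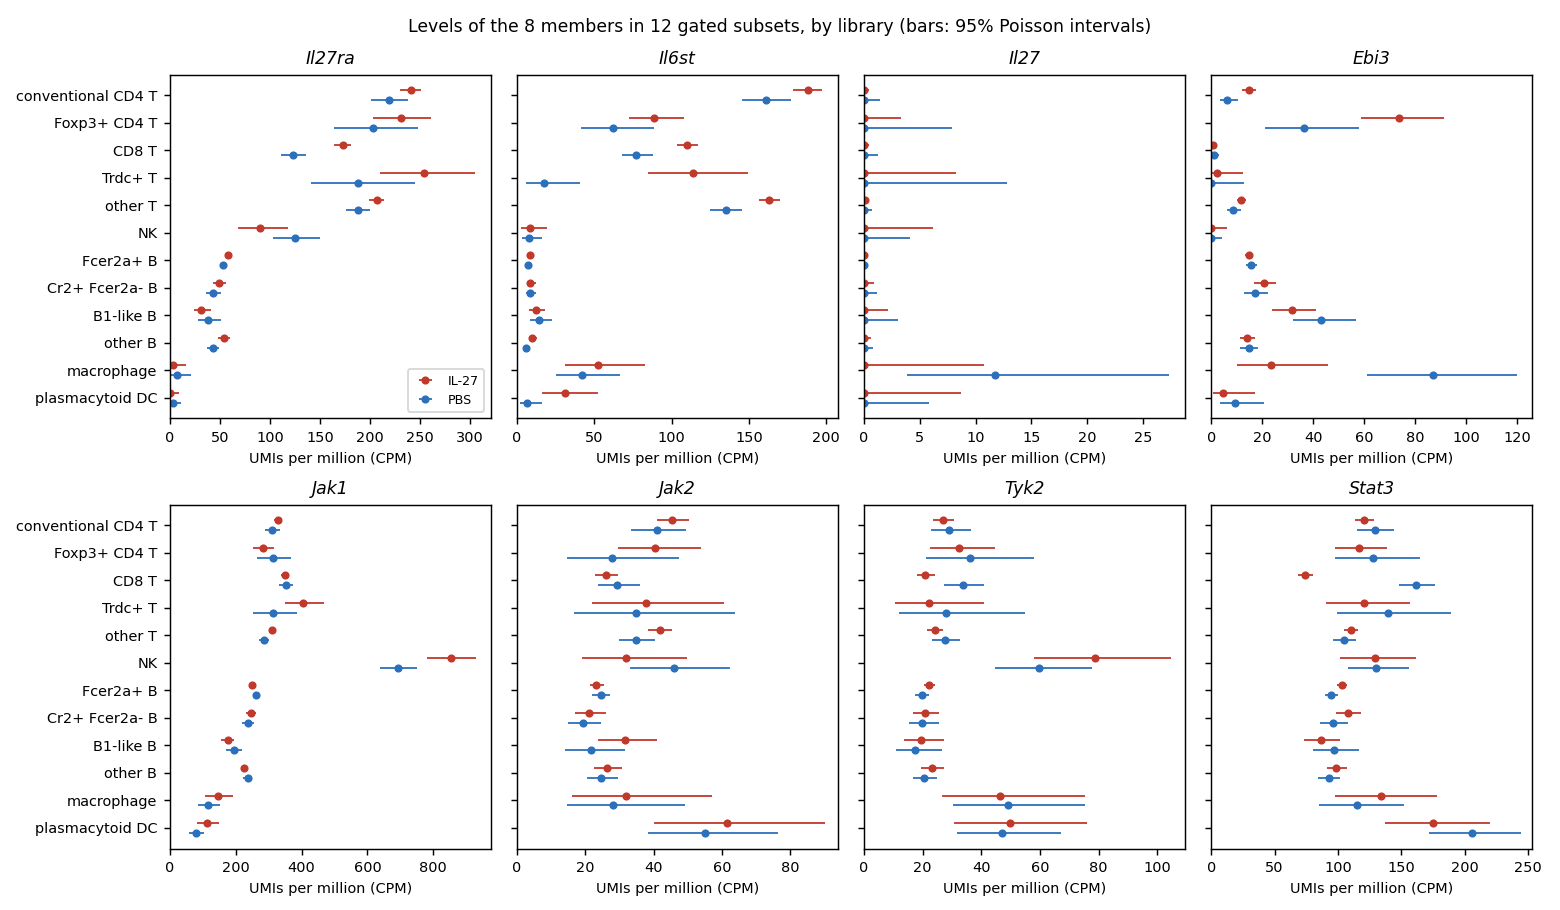
Levels of the 8 genes in the 12 subsets with at least 50 cells in each library, in CPM on a linear axis, IL-27 in red above PBS in blue, with bars for 95% Poisson intervals. Il27ra is highest in the conventional CD4, Foxp3+, Trdc+ and other T cell rows, Il6st in those of conventional CD4 and other T cells, with Trdc+ T cells of PBS low at 17.4 CPM, Jak1 peaks in NK cells (853 CPM in IL-27 and 693 CPM in PBS), and Il27 is seen in a few UMIs.

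Gated T cells held 207 CPM of Il27ra in the IL-27 library, against 53.3 CPM in B cells of the same library, a ratio of 3.89 (3.69 to 4.09). In the PBS library T cells held 178 CPM and B cells 49.1 CPM, a ratio of 3.62 (3.37 to 3.89). The ratio was 3.31, 3.88 and 4.64 in IL-27 wells and 3.34 and 3.87 in PBS wells, so T cells were above B cells by at least 3.31-fold in every well. When each cell was thinned to 1000 UMIs, Il27ra was detected in 21.4% of IL-27 T cells and 18.8% of PBS T cells. The same shares were 5.49% and 5.31% in B cells, and 0 of 74 and 1 of 78 plasmacytoid dendritic cells. Median depths were 3863.5 UMIs in IL-27 T cells and 3970 in PBS T cells, 2811 and 2774 in B cells, and 5948.5 and 7913 in plasmacytoid dendritic cells.

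Il6st, which encodes the signalling chain shared by the whole IL-6 family, was more restricted to T cells than Il27ra by its ratio to B cells. Conventional CD4 T cells held 182 CPM over both libraries, other T cells 156 CPM and CD8 T cells 102 CPM. Foxp3+ CD4 T cells held 80.8 CPM and Trdc+ T cells 76.0 CPM, with overlapping intervals. The T over B ratio was 17 (15.2 to 19.2) in the IL-27 library and 16.1 (13.7 to 18.9) in the PBS library, and it was lowest in PBS well 2 at 9.81. Il6st in NK cells was 8.38 CPM in IL-27 and 7.86 CPM in PBS, ratios to B cells of 0.944 (0.305 to 2.23) and 1.06 (0.42 to 2.23). NK cells therefore held Il27ra above the B cell level, by 1.70-fold (1.27 to 2.22) in IL-27 and 2.54-fold (2.07 to 3.09) in PBS, while their Il6st was not distinguishable from that of B cells at this depth. Macrophages showed the opposite arrangement, with 52.3 CPM of Il6st in IL-27 and 42.2 CPM in PBS beside an Il27ra level of 2.91 and 7.04 CPM (1 and 3 UMIs).

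Both receptor chains were detected together in 28.0% of IL-27 and 23.0% of PBS conventional CD4 T cells. At 1000 UMIs per cell the shares were 5.0% and 3.91%, beside 4.71% and 3.72% given by the product of the separate shares. Joint detection at this depth thus lay close to what the separate detection rates give. Both were held by 0 of 197 NK cells in the IL-27 library and by 3 of 278 NK cells in the PBS library. All 475 NK cells together held 12 Il6st UMIs, so these counts say little about joint expression.

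Il6st also differed between CD8 T cell states. CD8 T cells below the effector-gene cutoff held 188 CPM of Il6st in IL-27 and 168 CPM in PBS, against 84.5 and 53.0 CPM in effector-gene CD8 T cells. The ratio of cells below the cutoff over effector-gene cells was above 1 in all 5 wells, between 1.91 and 2.85. Median depths were 3923 UMIs in IL-27 and 4500.5 in PBS CD8 T cells below the cutoff, and 6102 and 5454 in effector-gene cells. The part of depth in the split was not tested.

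Of the 7 genes other than Il27, the receptor chains had the library-wide ratios furthest from 1. Over all cells Il6st was 76.3 CPM in IL-27 and 44.6 CPM in PBS, a ratio of 1.71 (1.63 to 1.80), and Il27ra was 123 and 89.2 CPM, a ratio of 1.37 (1.32 to 1.43). When the subset levels of each library were weighted by the same average mix of cells, the ratios were 1.27 and 1.15. The larger share of T cells in the IL-27 library moved with both differences. By well Il6st was 84.1, 76.6 and 68.4 CPM in IL-27, and 65.5 and 21.9 CPM in PBS, so PBS well 2 stood lowest. On the log2 scale with a pseudocount of 1 CPM the Il6st difference was 0.76, and it was 0.22 without PBS well 2 and 1.76 without PBS well 1. That of Il27ra was 0.45, and 0.20 and 0.79 without these wells. Jak1, Jak2, Tyk2, Stat3 and Ebi3 had all-cell ratios between 0.900 and 1.04, and Il27, on 4 and 7 UMIs, a ratio of 0.308 (0.0661 to 1.21).

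Within subsets most receptor differences were under 1.5-fold. Il27ra in conventional CD4 T cells was 240 CPM in IL-27 and 219 CPM in PBS, with 233, 253 and 236 CPM in IL-27 wells and 216 and 226 CPM in PBS wells. Every IL-27 well was above both PBS wells, yet the ratio of 1.1 had an interval of 0.999 to 1.21. Il27ra in CD8 T cells was 173 CPM in IL-27 and 123 CPM in PBS, a ratio of 1.40 (1.25 to 1.57), with 146, 207 and 187 CPM in IL-27 wells and 140 and 93.2 CPM in PBS wells. The lowest IL-27 well and the higher PBS well were close to each other. Il6st in conventional CD4 T cells was 188 CPM in IL-27 and 161 CPM in PBS, and PBS well 2 alone was low: the IL-27 wells had 181, 189 and 195 CPM, and the PBS wells 192 and 63.4 CPM. Without PBS well 2 the CD4 difference of Il6st was -0.03 on the log2 scale (pseudocount of 1 CPM), and without PBS well 1 it was 1.55.

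Il6st in Trdc+ T cells gave the largest ratio of any receptor comparison. It was 114 CPM in 117 IL-27 cells (51 UMIs) and 17.4 CPM in 61 PBS cells (5 UMIs), a ratio of 6.53 (2.62 to 21.0). The IL-27 wells held 124, 106 and 111 CPM and the PBS wells 32.9 and 6.02 CPM, so the groups did not overlap. In this subset 28.5% of all genes tested were at least 1.5-fold apart between the libraries. B cell check genes summed to 49.0 CPM in IL-27 Trdc+ T cells (2 of 5 detected, Pax5, Ebf1 and Cd22 at 0) and 184 CPM in PBS cells (2 of 5 detected, Pax5, Ebf1 and Bank1 at 0), and NK check genes to 267 and 654 CPM (4 of 4 detected in each). The part of these differences in the Il6st result was not tested. On the log2 scale the difference was 2.64, and it was 1.76 without PBS well 2, 4.03 without PBS well 1 and 1.29 when Trdc+ T cells with Trac UMIs were let into the gate, an alternative chosen after the data were seen.

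**Figure D2:**
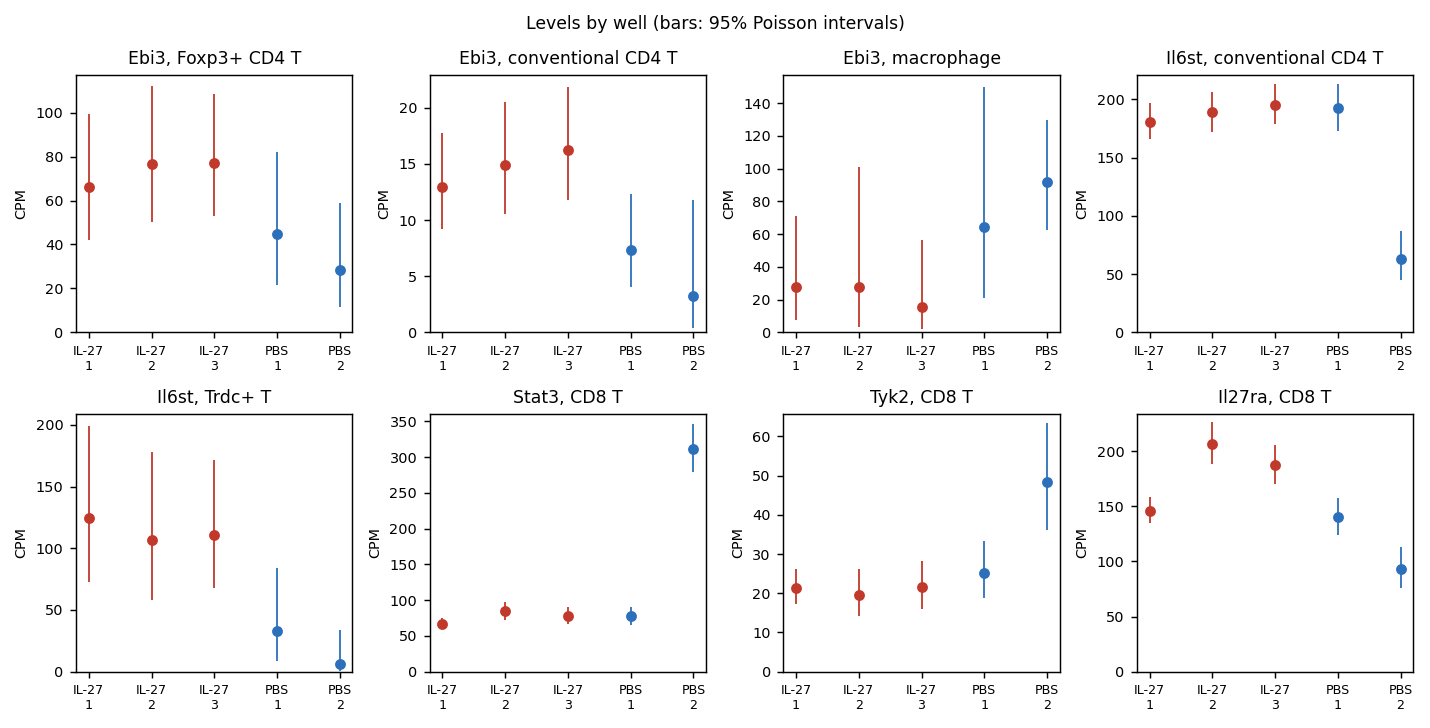
Levels by well for 8 pairs of gene and subset, in CPM on linear axes from 0, with the 3 IL-27 wells in red to the left of the 2 PBS wells in blue and bars for 95% Poisson intervals. Ebi3 is higher in every IL-27 well of Foxp3+ and conventional CD4 T cells and lower in every IL-27 well of macrophages, while Stat3 in CD8 T cells is at 311 CPM in PBS well 2 and between 67.1 and 84.3 CPM in the other wells.

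Of the ligand subunits, Ebi3 was far more abundant than Il27. Il27, which encodes p28, was almost undetected, with 4 UMIs in 20579 IL-27 cells and 7 UMIs in 11793 PBS cells. In the PBS library 5 of these 7 UMIs lay in macrophages, 1 in well 1 and 4 in well 2, and the other 2 in cells that passed more than one lineage gate. In the IL-27 library none of 60 macrophages held an Il27 UMI, which allows up to 8.72 CPM in this gate (3 counts), beside 11.7 CPM in PBS macrophages. The 4 IL-27 UMIs were in an other T cell, a mature dendritic cell, a cell of mixed gates and an ungated cell. Il27 and Ebi3 were found in the same cell 2 times in the IL-27 library and 1 time in the PBS library. No direction can be read from numbers of this size.

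Ebi3, the beta chain that IL-27 shares with IL-35, was spread over several lineages. Among the subsets with at least 50 cells in each library, Foxp3+ CD4 T cells (62.5 CPM), macrophages (58.4 CPM) and B1-like B cells (36.2 CPM) were highest, and the intervals of the first 2 overlapped. The other B cell gates lay between 14.3 and 19.2 CPM and conventional CD4 T cells at 12.7 CPM. CD8 T cells held 0.828 CPM (10 UMIs in 2166 cells) and NK cells no UMI in 475 cells. Foxp3+ over conventional CD4 T cells gave a ratio of 5.03 (3.75 to 6.71) in IL-27 and 5.70 (2.71 to 12.1) in PBS, and at least 4.75 in every well. B1-like over Fcer2a+ B cells gave 2.15 (1.58 to 2.86) and 2.77 (2.01 to 3.76). In the smaller gates, mature dendritic cells held 168 CPM in IL-27 (18 UMIs in 22 cells) and 126 CPM in PBS (10 UMIs in 13 cells), and neutrophils 90.2 and 160 CPM (5 and 8 UMIs).

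Over 16 subsets Ebi3 ranged from 0 to 123 CPM and Il6st from 0 to 182 CPM. The 250 bases upstream of their transcription starts are shown because both genes were low or undetected in some subsets while these stretches differ widely in base composition. They are RefSeq sequences on GRCm38.p6, plus strand, 5′ to 3′, chr17:55952373-55952622 for Ebi3 and chr13:112463820-112464069 for Il6st, with each CG pair in capitals.
Ebi3: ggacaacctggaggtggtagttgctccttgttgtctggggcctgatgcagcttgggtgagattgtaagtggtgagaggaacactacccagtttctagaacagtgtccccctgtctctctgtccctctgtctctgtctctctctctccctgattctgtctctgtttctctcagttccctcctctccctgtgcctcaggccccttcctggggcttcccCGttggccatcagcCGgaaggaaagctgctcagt
Il6st: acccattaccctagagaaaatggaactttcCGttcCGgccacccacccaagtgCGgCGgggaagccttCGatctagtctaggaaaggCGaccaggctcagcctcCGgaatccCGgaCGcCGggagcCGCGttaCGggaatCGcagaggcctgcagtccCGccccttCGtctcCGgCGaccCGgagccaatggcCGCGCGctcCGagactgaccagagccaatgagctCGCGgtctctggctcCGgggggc
The Ebi3 stretch holds 2 CG pairs, a number reached by 81.2% of 32851 promoters of the same length, and the Il6st stretch 26, reached by 9.59%. The pair CG reads the same on both strands. Of the other genes, Stat3 had 13, Jak1 and Tyk2 19 each and Jak2 37, against a median of 6 over all promoters. Sequences were matched for 6 of the 8 genes.

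Ebi3 differed between the libraries in opposite directions in CD4 T cells and in macrophages. In conventional CD4 T cells it was 14.6 CPM in IL-27 (120 UMIs) and 6.35 CPM in PBS (16 UMIs), a ratio of 2.30 (1.36 to 4.16). The IL-27 wells held 13, 14.9 and 16.2 CPM and the PBS wells 7.35 and 3.25 CPM. In Foxp3+ CD4 T cells it was 73.6 CPM in IL-27 and 36.2 CPM in PBS, a ratio of 2.03 (1.19 to 3.65), with 66.1, 76.6 and 77.2 CPM in IL-27 wells and 44.6 and 28.6 CPM in PBS wells. In neither subset did the wells of the libraries overlap. Among all genes tested, 3.84% were at least 1.5-fold apart in conventional CD4 T cells and 19.7% in Foxp3+ CD4 T cells. B cell gate markers, which could carry B cell Ebi3, were 21.5 CPM in IL-27 and 22.6 CPM in PBS conventional CD4 T cells, and 22.4 and 12.8 CPM in Foxp3+ CD4 T cells. Their part in the Foxp3+ result was not tested. On the same log2 scale the conventional CD4 difference was 1.09, and it was 1.88 without PBS well 1. With cells thinned to 1000 UMIs it was 0.58, where the ratio with the pseudocount included was just short of 1.5-fold.

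In macrophages Ebi3 was 23.2 CPM in IL-27 (8 UMIs in 8 of 60 cells) and 86.8 CPM in PBS (37 UMIs in 27 of 70 cells), a ratio of 0.268 (0.108 to 0.584). The IL-27 wells held 27.7, 27.9 and 15.6 CPM and the PBS wells 64.3 and 91.8 CPM, so every IL-27 well was below both PBS wells. PBS well 2 contributed 57 of the 70 PBS macrophages and PBS well 1 only 13, while the IL-27 wells held 28, 14 and 18. The 8 IL-27 UMIs were spread over all 3 wells, so each well level rests on few UMIs. Check genes of the dendritic lineage in this gate summed to 6119 CPM in IL-27 and 6988 CPM in PBS, with Ccr7 at 0 in both, and their part in the difference was not tested. The log2 difference was -1.86, and -0.80 with cells thinned to 1000 UMIs. Among all genes tested in macrophages 21.8% were at least 1.5-fold apart.

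Over all cells Ebi3 was 14.6 CPM in IL-27 and 16.2 CPM in PBS, a ratio of 0.900 (0.818 to 0.990). With the same average mix of cells the ratio was 0.984. The sources of its UMIs differed between the libraries. T cells held 31.2% (28.6 to 34.0) of the Ebi3 UMIs of the IL-27 library and 11.4% (9.09 to 13.9) of those of the PBS library. Foxp3+ CD4 T cells alone held 7.06% and 2.44%, and conventional CD4 T cells 10.3% and 2.30%. B cells held 48.9% (46.0 to 51.8) and 58.0% (54.3 to 61.7), and macrophages 0.688% and 5.32%. The T cell share of Ebi3 in PBS was 3.60% without PBS well 1 and 19.7% without PBS well 2. The shares include the difference in cell numbers as well as that in RNA per cell, and the part of each was not tested. For Il27ra the T cell share was 67.5% in IL-27 and 52.3% in PBS, and for Il6st 79.2% and 70.2%.

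**Figure D3:**
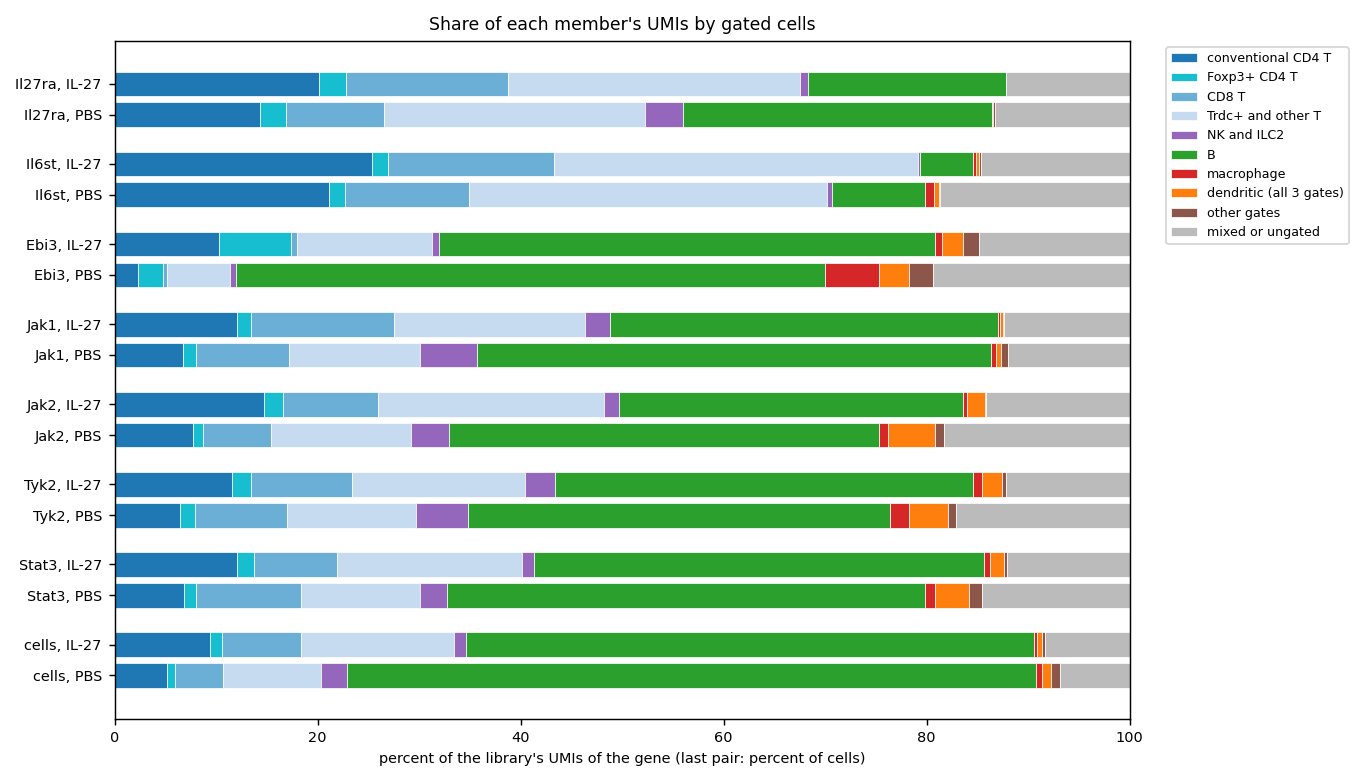
Share of the UMIs of 7 genes (all but Il27) held by gated cells, in percent of the library's UMIs of that gene, with the IL-27 bar above the PBS bar for each gene and the share of cells in the last pair. T cells hold 31.2% of Ebi3 UMIs in IL-27 and 11.4% in PBS, and 79.2% and 70.2% of Il6st UMIs.

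The kinases were detected in every subset with at least 50 cells in each library. Jak1, the kinase used by most cytokine receptors with gp130 or the common gamma chain, was highest in NK cells, at 853 CPM in IL-27 and 693 CPM in PBS, against 326 and 311 CPM in T cells. The NK over T ratio was 2.62 (2.39 to 2.86) in IL-27 and 2.23 (2.04 to 2.43) in PBS, and between 1.85 and 3.01 over the wells. T cells were above B cells by 1.37-fold (1.33 to 1.41) and 1.25-fold (1.20 to 1.31), and plasmacytoid dendritic cells were lowest of the 16 subsets, with 114 CPM in IL-27 and 78.5 CPM in PBS.

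Jak2, which pairs with gp130 and with many myeloid cytokine receptors, ran over a narrower range, and most neighbours in its order had overlapping intervals. Plasmacytoid dendritic cells held 61.5 CPM in IL-27 and 55.0 CPM in PBS, conventional CD4 T cells 45.4 and 40.9 CPM, and B cells 23.8 and 23.7 CPM. Conventional CD4 T cells exceeded B cells by 1.91-fold (1.68 to 2.16) and 1.72-fold (1.38 to 2.13). Tyk2, the kinase of the type I interferon and IL-12 receptors, was highest in NK cells, with 78.7 CPM in IL-27 and 59.5 CPM in PBS, 3.59-fold (2.62 to 4.82) and 3.00-fold (2.21 to 3.99) above B cells. Macrophages held 46.5 and 49.3 CPM and plasmacytoid dendritic cells 49.7 and 47.1 CPM, and the intervals of both subsets overlapped that of NK cells over the libraries together.

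Stat3, the transcription factor that gp130 activates most strongly, lay between 90.8 and 130 CPM in 11 of the 12 subsets. Plasmacytoid dendritic cells were highest of these 12, with 175 CPM in IL-27 and 206 CPM in PBS, which was 1.73-fold (1.35 to 2.18) and 2.17-fold (1.81 to 2.59) above B cells. NK cells held 129 and 130 CPM. B cells held 101 CPM in IL-27 and 94.7 CPM in PBS, with 99.7, 106 and 98.4 CPM in IL-27 wells and 93.3 and 96.0 CPM in PBS wells. The B cell wells were apart, but by a ratio of 1.07 (1.01 to 1.13).

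Stat3 and Tyk2 in CD8 T cells were the kinase and STAT comparisons furthest from 1. Stat3 was 74.3 CPM in IL-27 and 162 CPM in PBS, a ratio of 0.459 (0.408 to 0.517), with 67.1, 84.3 and 77.9 CPM in IL-27 wells and 77.4 and 311 CPM in PBS wells. PBS well 1 lay among the IL-27 wells, so the difference rested on PBS well 2. Tyk2 was 20.9 CPM in IL-27 and 33.6 CPM in PBS, a ratio of 0.621 (0.486 to 0.798), with 21.3, 19.6 and 21.5 CPM in IL-27 wells and 25.3 and 48.4 CPM in PBS wells. Without PBS well 2 the log2 differences were -0.06 for Stat3 and -0.26 for Tyk2, and neither was past 1.5-fold. Without PBS well 1 that of Stat3 was -2.05, against -1.11 with all wells.

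The same well was high within effector-gene CD8 T cells. Stat3 there was 70.7 CPM in IL-27 and 181 CPM in PBS, with 63.9, 82.5 and 71.8 CPM in IL-27 wells and 69.5 and 329 CPM in PBS wells. In the remaining CD8 T cells it was 85.3 CPM in IL-27 and 91.0 CPM in PBS, and PBS well 2 held 44.8 CPM from 3 UMIs. The Stat3 ratio within effector-gene CD8 T cells, 0.391 (0.343 to 0.446), was thus as far from 1 as in all CD8 T cells. In conventional CD4 T cells Stat3 was 121 CPM in IL-27 and 129 CPM in PBS, again with PBS well 2 highest at 189 CPM and the other wells between 110 and 140 CPM.

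**Figure D4:**
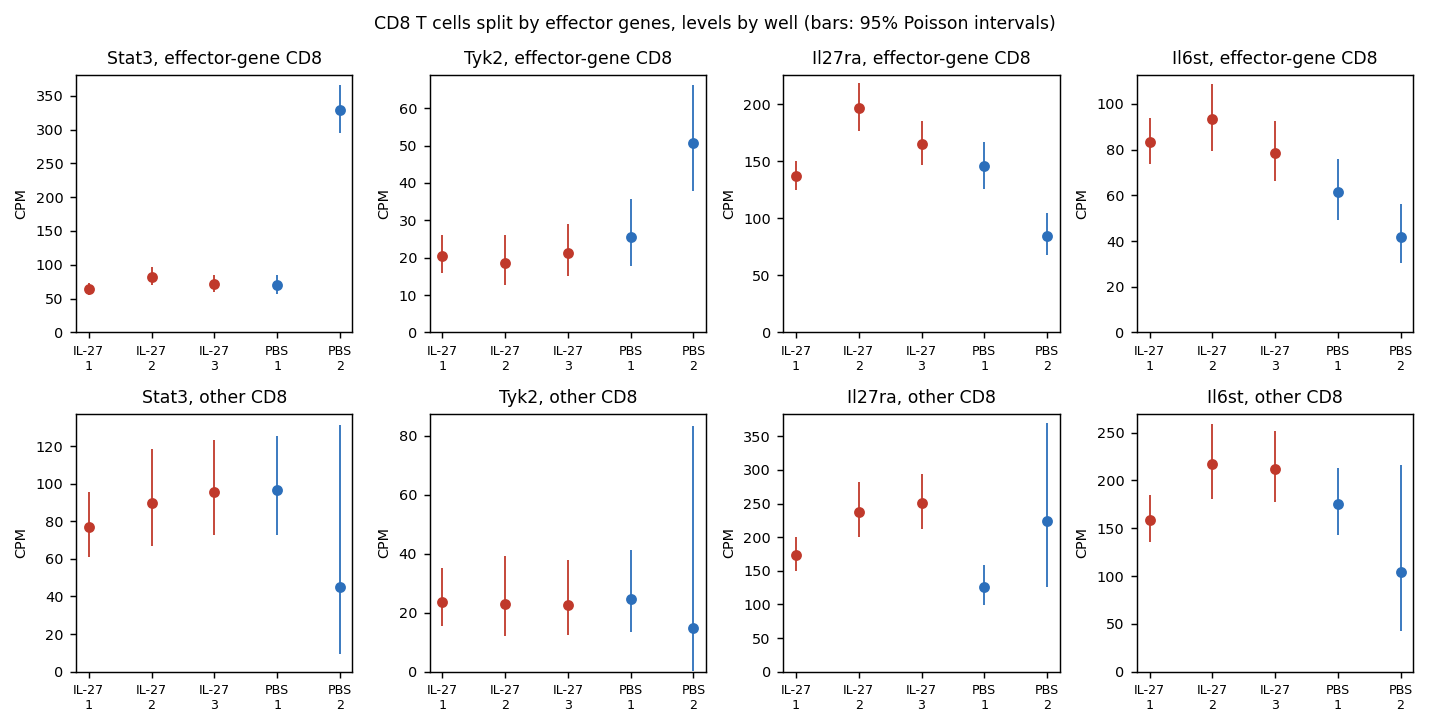
Stat3, Tyk2, Il27ra and Il6st by well in effector-gene CD8 T cells and in the other CD8 T cells, in CPM on linear axes from 0, IL-27 wells in red to the left of PBS wells in blue, with 95% Poisson intervals. PBS well 2 holds 329 CPM of Stat3 in effector-gene cells, and Il6st is higher in the other CD8 T cells than in effector-gene cells in all 5 wells.

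Counted over all 8 genes and 12 subsets, 72 of 96 pairs had enough RNA to compare (at least 20 UMIs in all and 10 CPM in the higher library). Of these 72, 3 were at least 1.5-fold higher in IL-27 and 3 at least 1.5-fold lower, which is 8.33%, beside 12% of gene and subset pairs over all genes. They were Ebi3 in conventional CD4 T cells, Foxp3+ CD4 T cells and macrophages, Il6st in Trdc+ T cells, and Stat3 and Tyk2 in CD8 T cells. In all but Stat3 the wells of the libraries did not overlap. Thus 5 of the 72 pairs were past 1.5-fold with wells apart, beside 6.13% of gene and subset pairs over all genes. In conventional CD4 T cells, where 3.84% of genes were past 1.5-fold, the median log2 difference of the 7 members compared was 0.14, against 0.01 over all genes. In CD8 T cells the share was 15% and in Foxp3+ CD4 T cells 19.7%. The count of pairs depended on single wells: it was 14 without IL-27 well 1, 17 without PBS well 1 and 11 without PBS well 2.

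**Figure D5:**
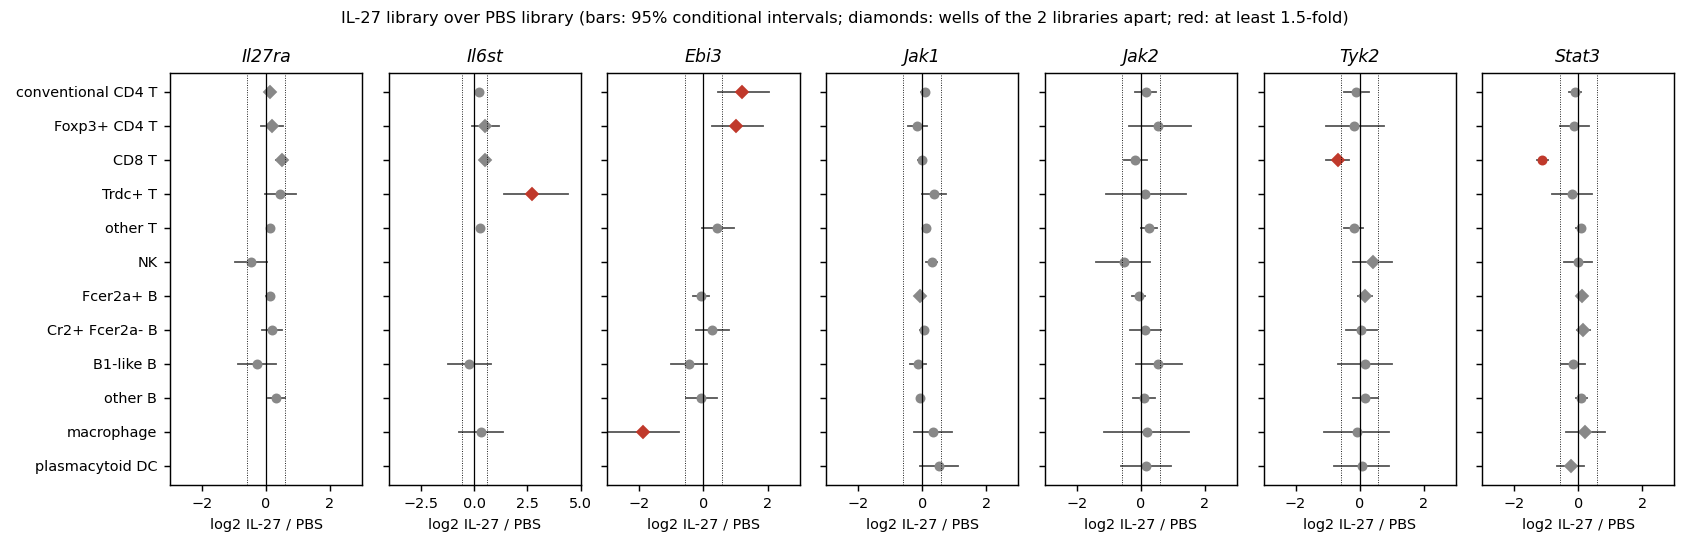
Log2 ratio of the IL-27 library over the PBS library for the 7 genes with enough UMIs, by subset, with 95% conditional intervals (counting error only), dotted lines at 1.5-fold, diamonds where the wells of the libraries were apart and red where the ratio was at least 1.5-fold. The 6 red points include Ebi3 with ratios of 2.30 and 2.03 in conventional and Foxp3+ CD4 T cells and 0.268 in macrophages.

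Other genes of the pathway were compared in conventional CD4 T cells. Of 7 gp130 family receptors only Il6ra, the IL-6 receptor alpha chain, had enough RNA, with 94.0 CPM in IL-27 and 96.1 CPM in PBS. Of 7 gp130 family ligands Osm (oncostatin M) had 13.2 and 10.7 CPM and Clcf1 37.0 and 31.4 CPM, and of 6 genes of the IL-12 family none had enough. All 7 other JAK and STAT genes were compared and none was past 1.5-fold. Of 15 JAK-STAT regulators compared none was past 1.5-fold. Only 3.84% of all genes were past 1.5-fold in this subset, so for lists of this size these counts lie close to that share. Socs3, which encodes a feedback inhibitor of gp130, was 30.0 CPM in IL-27 and 23.4 CPM in PBS, and its wells overlapped in conventional CD4 T cells. In Fcer2a+ B cells it was 21.7 CPM in IL-27 and 11.2 CPM in PBS, with 14.7, 29.2 and 21.1 CPM in IL-27 wells and 12.6 and 9.81 CPM in PBS wells. In other B cells it was 23.0 and 9.48 CPM, and in Cr2+ Fcer2a-negative B cells 27.8 and 14.6 CPM. In all 3 of these B cell gates every IL-27 well was above both PBS wells. In B1-like B cells Socs3 was 17.7 CPM in IL-27 and 11.6 CPM in PBS, and the wells overlapped. In macrophages it was lower in IL-27, at 46.5 CPM against 63.3 CPM in PBS, again with overlapping wells.

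Of a list of 26 known IL-27-inducible genes, 21 had enough RNA to compare in conventional CD4 T cells. Of these 21, 0 were at least 1.5-fold higher in the IL-27 library and 4 were at least 1.5-fold lower. Among all genes there 1.9% were higher and 1.94% lower, so the count of 0 higher lies close to the share of all genes. The median log2 difference of the list was -0.11, against 0.01 over all genes. The 4 were the checkpoint receptor genes Havcr2 (2.93 CPM in IL-27 and 17.9 CPM in PBS) and Tigit (47.0 and 96.9 CPM), the ectonucleotidase gene Entpd1 (7.20 and 13.9 CPM) and Ifng, which encodes interferon gamma (8.66 and 38.1 CPM). For all 4 the highest well was PBS well 2, with 73.2, 325, 45.5 and 146 CPM, and the lowest was PBS well 1, with 0, 23.1, 3.68 and 3.15 CPM. Every IL-27 well lay between the PBS wells. Without PBS well 2 the list had 4 members higher and 0 lower, and without PBS well 1 it had 1 higher and 12 lower.

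In most other subsets the counts of this list moved with single wells. In CD8 T cells 3 of 24 were at least 1.5-fold higher and 10 lower, beside 2.54% and 12.5% of all genes, but only 1 of these 13, Maf among the lower, had its wells apart. Havcr2 in CD8 T cells, for example, was at 3.61 CPM in PBS well 1 and 256 CPM in PBS well 2, and without PBS well 2 the list had 3 higher and 1 lower. In Foxp3+ CD4 T cells 1 of 20 was higher and 6 were lower, beside 10% and 9.64%, and wells were apart for 1 in each direction, Eomes and Cd274. Without PBS well 2 there were 3 higher and 1 lower, and without IL-27 well 1 there were 0 higher and 2 lower. In plasmacytoid dendritic cells 7 of 14 were higher and 0 lower, beside 15.4% and 11.4% of all genes, and the wells overlapped for all 7. The count of higher genes there was 0 without PBS well 2 and 3 without IL-27 well 1. In macrophages 5 of 13 were higher and 0 lower, beside 10.8% and 11.1%, again with overlapping wells for all 5, and the count was 2 without IL-27 well 3. In Fcer2a+ B cells 1 of 15, Socs3, was higher and 2, the interferon-responsive genes Isg15 and Ifit3, were lower, beside 0.168% and 0.323% of all genes, with wells apart for all 3. Isg15 was 20.6 CPM in IL-27 and 37.5 CPM in PBS, and Ifit3 5.27 and 12.5 CPM.

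In Trdc+ T cells 9 of 16 were higher and 2 lower, beside 16.1% and 12.4% of all genes there. Wells were apart for 6 of the 9 and 1 of the 2, and 6 were higher without PBS well 1. Among them were Ly6a, which encodes the interferon-responsive surface protein Sca-1 (172 CPM in IL-27 and 6.96 CPM in PBS, 77 and 2 UMIs), and Socs3 (89.1 and 27.8 CPM). Both had every IL-27 well above both PBS wells. The 2 lower genes were Maf (91.3 CPM in IL-27 and 181 CPM in PBS) and Pim1 (78.0 and 139 CPM), with wells apart for Pim1. Il6st was also higher in this gate, and a link between it and the listed genes was not tested.

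The genes most like each member over 16 subsets were found by the Pearson correlation of log2(CPM + 1) across 8913 genes, a description in which all points share the same libraries and depth. For Il27ra they were Sigirr (r = 0.97), Sh2d2a (0.96), Fndc10 (0.96), Faah (0.95) and Tnik (0.94). For Il6st they were Tagap (0.89), Prickle1 (0.86), Gbp8, Cd5 and Tdrp. Ebi3 was most like Wdfy2 (0.82) and Rcan1 (0.80), Jak1 most like Gramd1a (0.91), Sun2 (0.89) and Stat4 (0.89), and Stat3 most like Syap1 (0.93). Jak2 was most like Tmem59 (0.84) and the 5 genes most like Tyk2 included Tmem234 (0.86). The members were less like each other: Il27ra and Il6st correlated at 0.48, Il27ra and Jak1 at 0.55, and Jak2 and Tyk2 at 0.65, while Il27ra and Stat3 gave -0.52. Il27 had too few UMIs for such a comparison.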

How the data were processed

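The submitters' processing notes name Cell Ranger 3.0.0 and mm10, and the headers of the matrices give software version 3.1.0. Each deposited matrix holds UMI counts that were not normalized, all of them whole numbers. Cells with at least 200 genes and at most 10% mitochondrial UMIs were kept. The cells were gated on raw marker UMIs, allowing 1 UMI of another lineage, and cells passing several lineage gates were set aside as mixed. This was the only removal of doublets. In the Trdc+ T and plasmacytoid gates, 2 conditions were added after a first look. UMIs were summed per library, well and subset and given as CPM, with exact Poisson intervals for levels, exact conditional intervals for ratios and exact binomial intervals for shares. A count of 0 was read as allowing 3 counts. Gene and subset pairs were compared from 20 UMIs and 10 CPM, and log2 differences used a pseudocount of 1 CPM. With 1 library per group no test was run. All 8 members were named in the subsets with at least 50 cells in each library, and pathway genes past 1.5-fold were named in conventional CD4 T cells. Some genes that the rule takes are not reported here. Entries named beyond this rule, such as Ly6a, Socs3, Maf, Havcr2, Eomes, Cd274, Isg15 and Ifit3 in other subsets, were chosen after their values were seen. The members and lists were chosen with earlier results of these data known. Of the regulators listed, Lnk is an older symbol of Sh2b3 and was not counted as a second gene. Gene coordinates were not needed for the counts, and promoters came from RefSeq (GRCm38.p6). Ratio intervals were tested on simulated Poisson counts, the model they assume, with no spread between wells or mice. This check therefore says nothing about such spread. Alternatives changed the cell filter, gates, doublet removal (Scrublet in scanpy 1.11.5, per well), scaling, depth, pseudocount and wells. Python 3.11.15, numpy 2.4.6, scipy 1.17.1 and pandas 2.3.3 were used.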

Additional observations from a re-analysis of the deposited data

Results flagged for a closer look

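Ebi3 differed between the libraries in opposite directions in different subsets, with the wells apart in each. On the log2 scale with a pseudocount of 1 CPM, IL-27 over PBS was 1.09 in conventional CD4 T cells and 1.00 in Foxp3+ CD4 T cells, and -1.86 in macrophages. In each T cell subset all 3 IL-27 wells were above both PBS wells, and in macrophages all 3 were below both. The difference between the subsets was not tested, since each treatment is 1 library, and the macrophage value rests on 8 UMIs in IL-27 and 37 in PBS.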

How the results depend on the processing

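Of 126 results, none with a ratio past 1.5-fold turned its sign under any alternative run, and 1197 of 1346 values stayed within the counting interval of their main value (for counts, within 1.5 times it). The 6 pairs past 1.5-fold kept their sign throughout. With the pseudocount included, 3 had folds past 1.5 under every alternative. The log2 difference was at least 1.29 for Il6st in Trdc+ T cells. For Ebi3 it was at least 0.71 in Foxp3+ CD4 T cells and -0.80 or lower in macrophages. Where one of these 3 was not counted, it lacked the UMIs or CPM required. Their number became 10 with cells thinned to 1000 UMIs and 3 with at least 100 UMIs required, and ranged from 8 to 17 with a well left out. It was 9 without the added gate conditions. This alternative and the all-cell and listed-gene values without a well were chosen after the data were seen. In conventional CD4 T cells the log2 difference of Tyk2, -0.10, became 0.76 with thinned cells, and leaving out a well gave Il6st -0.032 to 1.55, Jak1 -0.11 to 0.15 and Stat3 -0.64 to 0.14. Il27ra in T over B cells, at log2 1.94 in IL-27 and 1.83 in PBS, was 2.12 and 2.0 with thinned cells, 1.78 and 1.67 with a pseudocount of 10 CPM, and 1.79 to 2.08 and 1.72 to 1.93 with a well left out. The B cell share of Ebi3 UMIs was 57.7% in IL-27 and 68.6% in PBS with thinned cells. The T cell share was 27.7% in IL-27 with no UMI of another lineage allowed, and 3.60% to 19.7% in PBS with a well left out. The macrophage share of Il27 UMIs in PBS, 71.4%, was 100% with doublet scores over 0.25 removed or with thinned cells, and 33.3% to 100% with a well left out. The cause of these shifts was not tested. No paired analysis was possible because each group is 1 library. Depth limits Il27 (11 UMIs in all) and every subset under about 100 cells.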

Other observations

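Subsets with fewer than 50 cells in a library add a few levels. Type 2 innate lymphoid cells held 140 CPM of Il27ra in IL-27 (22 UMIs in 35 cells) and 208 CPM in PBS (30 UMIs in 29 cells), against 173 and 123 CPM in CD8 T cells, beside 4 and 2 UMIs of Il6st. Germinal centre B cells held 6.47 CPM of Il27ra in IL-27 (7 UMIs) and 30.0 CPM in PBS (3 UMIs), against 57.9 and 53.5 CPM in Fcer2a+ B cells. Mature dendritic cells held 122 CPM of Jak2 in IL-27 and 253 CPM in PBS (13 and 20 UMIs), and 122 and 101 CPM of Tyk2 (13 and 8 UMIs). Plasma cells held 35.3 CPM of Jak1 in IL-27 and 17.6 CPM in PBS (17 and 3 UMIs). Mast cells, 4 in IL-27 and 62 in PBS, held no Il6st UMI and 0 and 6 Il27ra UMIs.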
